A study of Mus musculus with 24 samples.

Results

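Sarcolipin (Sln), the small GTPase Rrad and 8 genes of excitation-contraction coupling were followed across the gastrocnemius, a largely fast-fibred muscle of the calf, in young, old and calorically restricted mice. The 10 genes were Sln, Rrad, Ryr1, Cacna1s, Cacng1, Cacnb1, Jph1, Jph2, Trdn and Stac3, out of 19057 genes named on the array. Probes were taken by gene symbol in the platform annotation. Sln and Rrad were chosen by their difference between old and young mice, so their values in that comparison, and those of the other members, are given as a description without a test. Under these symbols 9 members had a probe, 18 probes in all, and Cacna1s was not analysed here. Of the 18 probes 15 passed the detection filter, and 8 members entered the comparisons. The single probe of Trdn, which encodes triadin, an anchor of the calcium store protein calsequestrin, was detected on none of the 24 arrays, and neither were a second probe of Sln and 1 of the 5 probes of Ryr1.

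In excitation-contraction coupling an action potential runs down the transverse tubules, and the voltage sensor there, the Cacna1s channel with its subunits Cacng1 and Cacnb1 and the adaptor Stac3, opens the release channel Ryr1 in the sarcoplasmic reticulum. Junctophilins, encoded by Jph1 and Jph2, hold the tubule and reticulum membranes together at the triad. Calcium is taken up again by the SERCA pumps Atp2a1 and Atp2a2, whose activity sarcolipin lowers and whose use of ATP it uncouples from transport. Rrad belongs to the RGK GTPases, which bind calcium channel beta subunits and reduce channel current.

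All mice were male B6D2F1, a hybrid strain. The young mice were 8 months old and fed ad libitum, the old mice 24 months old and fed ad libitum, and the restricted mice 24 months old and kept on caloric restriction. The 6 young mice filled 10 arrays, the 6 old ad libitum mice 7 and the 5 restricted mice 7. The groups are a cross-section of one colony, so each mouse was sampled at a single age. Levels are log2 normalized intensities per mouse, with repeated arrays of a mouse averaged, and differences are on the same log2 scale. Levels of different probes are not comparable.

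Between 13625 and 15176 of 45281 probes were detected on an array. The tissue label was checked against 10 skeletal muscle fibre genes, which were all detected on all 24 arrays, with a mean level between 15.1 and 15.3 in every mouse. In the fit over 8943 genes, 120 genes rose and 64 fell in old against young mice, 2.06% of those tested, and the split was 226 to 54 when arrays were scaled to their 75th percentile. In restricted against old ad libitum mice 82 rose and 202 fell, 3.18% of those tested. In restricted against young mice 181 rose and 240 fell, 4.71% of those tested, with a split of 208 to 166 under 75th percentile scaling. Each of the 4 chips held arrays of all 3 groups.

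Sln was low and even in young muscle and higher, but very uneven, in old muscle. The gene lies on mouse chromosome 9 from 53850251 to 53853849 in the RefSeq annotation of GRCm38.p6. In the young mice its level ran from 7.57 over a median of 8.18 to 8.24. In the old ad libitum mice it ran from 8.48 over a median of 9.75 to 13.29. The 5 restricted mice had levels of 8.95, 8.85, 10.65, 9.47 and 8.68. Every old mouse, on either diet, lay above every young mouse, while the old ad libitum and restricted mice overlapped. The highest values belonged to old ad libitum mice 6 (13.29) and 5 (11.57), each measured on 1 array.

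**Figure D1:**
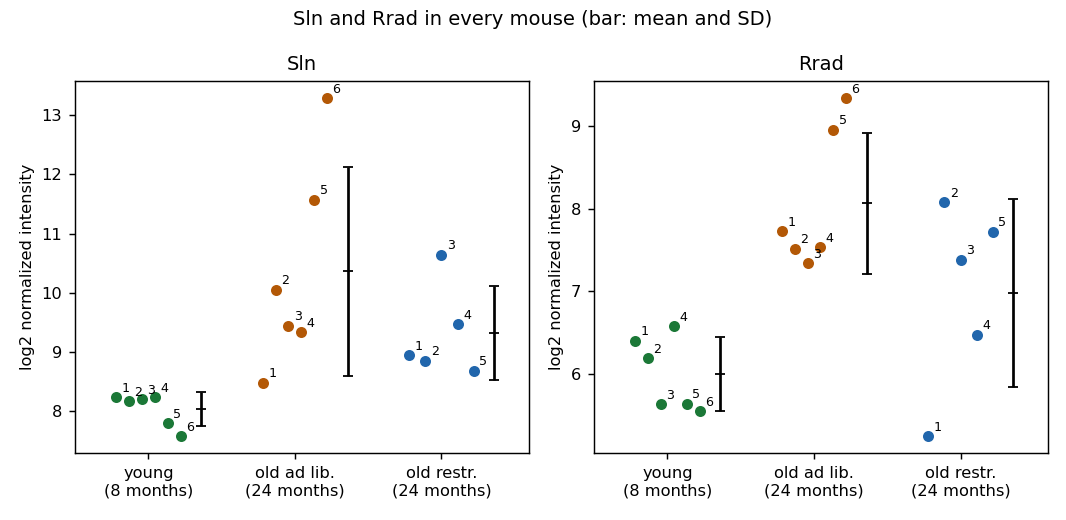
Log2 normalized intensity of Sln (left) and Rrad (right) in every mouse by group, with mouse numbers beside the points and the group mean with its SD as a bar. Old ad libitum mice 5 and 6 are the highest for both genes, and the 5 restricted mice lie above all young mice for Sln but not for Rrad.

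The old ad libitum mean of Sln exceeded the young mean by 2.33 ± 0.59 (SE). Between mice the SD was 0.28 in young, 1.77 in old ad libitum and 0.80 in restricted mice (n = 6, 6 and 5), against 0.049 between repeated arrays of a mouse. On single chips the difference between old ad libitum and young arrays ran from 1.37 to 5.27. Its sign was fixed, since every old ad libitum mouse lay above every young mouse. The 5.27 came from a chip with 1 old ad libitum array, that of mouse 6, and young mouse 6 was on all 4 chips. Without old ad libitum mice 5 and 6 the difference of the means was 1.30. Sln and Rrad were the 2 of 8 members that passed the threshold, and also the 2 of 8 whose old and young groups did not overlap, a state found in 2.59% of all genes tested. These shares are given as a description, since this contrast chose both genes.

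The restricted mean of Sln was lower than the old ad libitum mean by a difference of -1.05 ± 0.62 (SE), which did not pass the test (limma, adjusted p = 0.36). This difference rested on mice 5 and 6, since without them it was -0.01. The restricted mean exceeded the young mean by 1.29 ± 0.62 (SE), and all 5 restricted mice lay above all 6 young mice. In the fit that pools the spread of all 3 groups this difference did not pass (limma, adjusted p = 0.238). When only these 2 groups were fitted, the same difference passed (limma, adjusted p = 0.0244), as it did without old ad libitum mice 5 and 6 (limma, adjusted p = 0.0257). Both comparisons share mice with the one that chose Sln, so the side on which the restricted mice fall is not independent of that choice.

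The second Sln probe stayed between 4.49 and 4.74 in all mice and at a signal of 59.9 to 91.7, in old ad libitum mouse 6 too. The Sln result therefore rests on 1 probe.

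Rrad was near the detection limit in young muscle and clearly above it in old ad libitum muscle. It lies on chromosome 8 from 104628070 to 104631350. Its probe was detected on 5 of 10 young arrays, 7 of 7 old ad libitum arrays and 6 of 7 restricted arrays. Its level ran from 5.54 over a median of 5.91 to 6.58 in the young mice and from 7.34 over a median of 7.63 to 9.35 in the old ad libitum mice. The restricted mice had levels of 5.24, 8.08, 7.38, 6.47 and 7.72. Thus old ad libitum and young mice did not overlap, while restricted mouse 1 lay below every young mouse and restricted mouse 2 above 4 of the 6 old ad libitum mice.

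The old ad libitum mean of Rrad exceeded the young mean by 2.07 ± 0.43 (SE). The difference was 1.34 when no background was subtracted, and 1.34 in the authors' values, so its size depended on the background correction. On single chips it ran from 1.86 to 3.30, and without old ad libitum mice 5 and 6 it was 1.53. Repeated arrays of a mouse had an SD of 0.27 for Rrad. The widest set spanned 0.97 and was that of young mouse 6 (5.09 to 6.06), near the detection limit. At higher levels the repeats lay closer: 7.30 and 7.38 in old ad libitum mouse 3, 8.03 and 8.14 in restricted mouse 2. In restricted mouse 5 they were 7.75 and 7.69. The restricted mean differed from the old ad libitum mean by -1.09 ± 0.45 (SE), which did not pass the test (limma, adjusted p = 0.184), and the sign was opposite on 1 of the 4 chips. The restricted mean exceeded the young mean by 0.98 ± 0.45 (SE), which did not pass either (limma, adjusted p = 0.22). As for Sln, both comparisons share mice with the one that chose Rrad, so they are not independent of that choice. The other RGK GTPases gave no level: Gem and Rem2 were detected on no array, and Rem1 was not analysed here.

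Sln and Rrad were both highest in old ad libitum mice 5 and 6. Over the 17 mice, with group means subtracted, they correlated at r = 0.55 (permutation p = 0.0488) and at rho = 0.46 (permutation p = 0.123). Over all 28 pairs of measured members the adjusted p of r was 0.281, so the relation did not pass. It was 0.40 without the 2 mice farthest from the median of Sln and 0.071 without old ad libitum mice 5 and 6.

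The mean level of markers of denervated fibres was highest in the 2 mice with the most Sln. Of 14 listed genes 12 had a probe and 10 were tested. Chrnd was detected on no array and Runx1 on too few to be tested. Chrng, the gamma subunit of the fetal acetylcholine receptor, was detected on 0 of 10 young, 5 of 7 old ad libitum and 1 of 7 restricted arrays. It thus entered the mean below through the group where it was high. Myog was detected on 2, 6 and 4 of these arrays. The mean level of the 10 genes lay between 7.79 and 8.05 in young, 8.23 and 9.80 in old ad libitum and 7.97 and 8.26 in restricted mice. It was highest in old ad libitum mice 6 (9.80) and 5 (9.05). In the other old ad libitum mice it did not follow the order of Sln. Mouse 2, with a Sln level of 10.05, had a marker mean of 8.25, and mouse 1, with 8.48, one of 8.39. Not every gene followed the mean. Musk was highest in young mouse 5 (7.66), beside 7.58 and 7.37 in old ad libitum mice 6 and 5. Chrne stood at 8.50 in old ad libitum mouse 4 and 8.36 in mouse 6. Myog stood at 6.92 in old ad libitum mouse 1 and 6.88 in mouse 5. In old against young mice Myh8, the perinatal myosin heavy chain, rose by 1.16 ± 0.19 (SE). Gadd45a and the receptor subunit gene Chrnb1 rose too, 3 of 10 in all, beside 2.06% of all genes tested. In restricted against old ad libitum mice Myh8 (-1.18 ± 0.20, SE) and the cell cycle inhibitor gene Cdkn1a (-1.30 ± 0.30, SE) fell. These were 2 of 10, beside 3.18% of all genes tested. The list was chosen with earlier results of these data known, so its counts are a description. The macrophage marker mean was also the highest of all mice in old ad libitum mice 6 (9.33) and 5 (9.08). In the same 2 mice the smooth muscle mean was the lowest of all mice (9.37 and 9.36). Their adipocyte means (8.47 and 8.68) were the lowest of the old ad libitum group. The Schwann cell, endothelium, fibroblast and satellite cell means did not set both mice at one end of that group. The part of any of these markers in the Sln difference was not tested. In bulk tissue, fewer cells of a type and less RNA per cell cannot be told apart.

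Sln is also abundant in atrial muscle and in the slow soleus muscle of mice. Of the 8 cardiomyocyte markers Nppa, Nppb, Myl7, Tnni3 and Ryr2 were detected on no array. The 2 tested were Myl4 and Myh6. Myl4, a light chain also made in immature skeletal fibres, rose by 0.67 ± 0.15 (SE; limma adjusted p = 0.0275) in old against young mice. Myh6 rose by 1.70 ± 0.48 (SE; limma adjusted p = 0.0484) in restricted against young mice. Its probe was detected on only 5 of 10 young arrays, beside 6 of 7 restricted arrays. The mean level of 8 slow fibre markers ran from 8.47 to 10.52 in young, 8.04 to 10.86 in old ad libitum and 8.62 to 12.14 in restricted mice. The medians of these groups were 9.32, 10.55 and 11.68. All 8 genes had a higher group mean in restricted than in old ad libitum mice (median difference 1.16) and than in young mice (1.70). In old against young mice 7 were higher (median difference 0.40). Of the 2 mice with the most Sln, mouse 6 had a mean of 10.55 and mouse 5 one of 8.04. The part of slow fibres in the Sln values was not tested. Of these 8 genes Myh7, the slow myosin heavy chain, rose in restricted against young mice (1.80 ± 0.50, SE; limma adjusted p = 0.0490), but its probe was detected on 1 of 10 young, 1 of 7 old ad libitum and 5 of 7 restricted arrays, so that it entered the test through the group where it was high. None of the 8 passed in the other comparisons.

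Among all genes tested, the pattern most like that of Sln within groups was that of Chrna1, the alpha subunit of the muscle acetylcholine receptor (r = 0.90 over 17 mice, group means subtracted). Group by group r was 0.95 in the 6 old ad libitum mice and 0.86 in the 5 restricted mice, and it had the opposite sign in the 6 young mice (-0.84). Ddt, Chrng, Rccd1 and Nes, which encodes the filament protein nestin, followed with r from 0.87 to 0.89. Of these, Chrng had entered the test through the old ad libitum arrays, where it was high. By level over the 17 mice, group means not subtracted, the closest were Chrna1 (r = 0.94), Ddt, Myl4, Lrp11 and Chrnb1. Chrna1 stood at 11.52 in old ad libitum mouse 6 and 10.14 in mouse 5, and between 9.07 and 9.47 in the other old ad libitum mice. In young mice it lay between 8.70 and 8.83. The likeness within groups rested on those 2 mice: without them r with Chrna1 was 0.51, and r with the other genes of the within-group list was 0.35 to 0.56. The points share chips and normalization, and the genes were picked for their r.

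For Rrad the closest pattern was that of Cpne2, which encodes a calcium-dependent membrane-binding copine, both within groups (r = 0.86) and by level (r = 0.94). Within groups Brk1, Tubb6, Pdp2 and Prkcsh followed with r from 0.78 to 0.84. By level Tubb6, a beta tubulin, Nfkb2, Myl4 and Hip1r followed with r from 0.85 to 0.89. Without old ad libitum mice 5 and 6 the r with Cpne2 was 0.79 within groups and 0.89 by level. Restricted mouse 1, which had the lowest Rrad level, also had the lowest Cpne2 level, 8.33. Restricted mice 2 and 5, at the top of their group for Rrad, were the highest of their group for Cpne2, at 9.81 and 9.96.

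**Figure D2:**
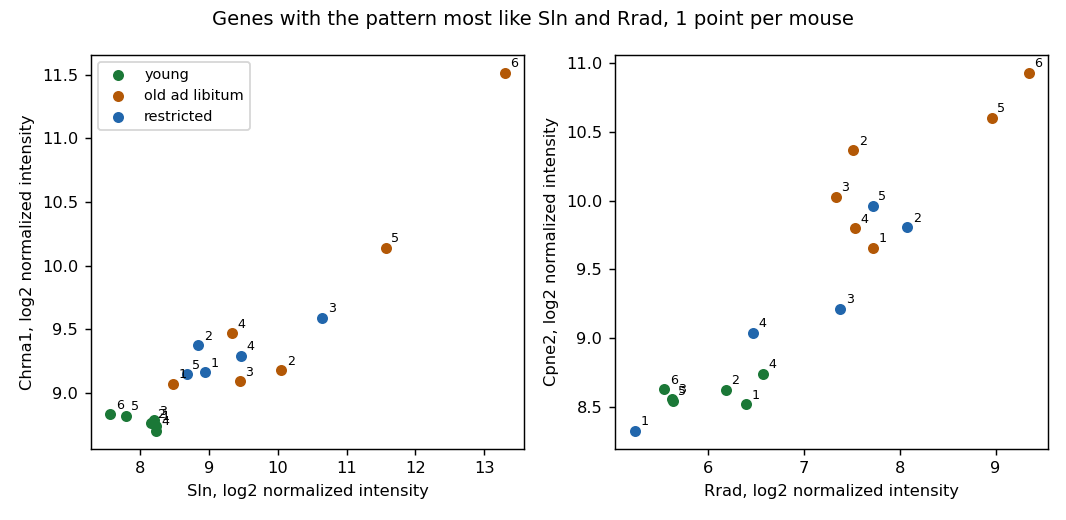
Level of Chrna1 against Sln (left) and of Cpne2 against Rrad (right), log2 normalized intensity, 1 point per mouse with its number and the group by colour. Old ad libitum mice 5 and 6 stand far from the others for Sln and Chrna1, while the Rrad and Cpne2 values are spread along the whole range.

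On the brightest probe per gene, the 6 other tested members moved far less than Sln and Rrad, which the old against young contrast chose. On these probes their differences between old ad libitum and young mice ran from -0.13 for Ryr1 to 0.22 for Cacnb1. With 75th percentile scaling they ran from 0.019 for Ryr1 to 0.28 for Cacnb1. Dimmer probes differed more, among them 1 of Ryr1 by -0.62 and 1 of Jph1 by -0.47. Of the 8 members 0 passed the test (limma) under restriction or in restricted against young mice. In each of these comparisons 2 of 8 had an unadjusted p under 0.05 (limma), beside 19.8% and 21.5% of all genes tested. Rrad was among these 2 in each comparison, and both comparisons share mice with the one that chose it. Groups of restricted and old ad libitum mice did not overlap for 0 of the 8 members, beside 2.36% of all genes. Over all 8 members the median difference was 0.086 in old against young, -0.042 in restricted against old ad libitum and 0.081 in restricted against young mice, beside 0.018, -0.021 and -0.0075 over all genes tested. These medians include Sln and Rrad, which the old against young contrast chose. With groups of 5 and 6 mice, a difference that missed the threshold is not shown to be 0.

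**Figure D3:**
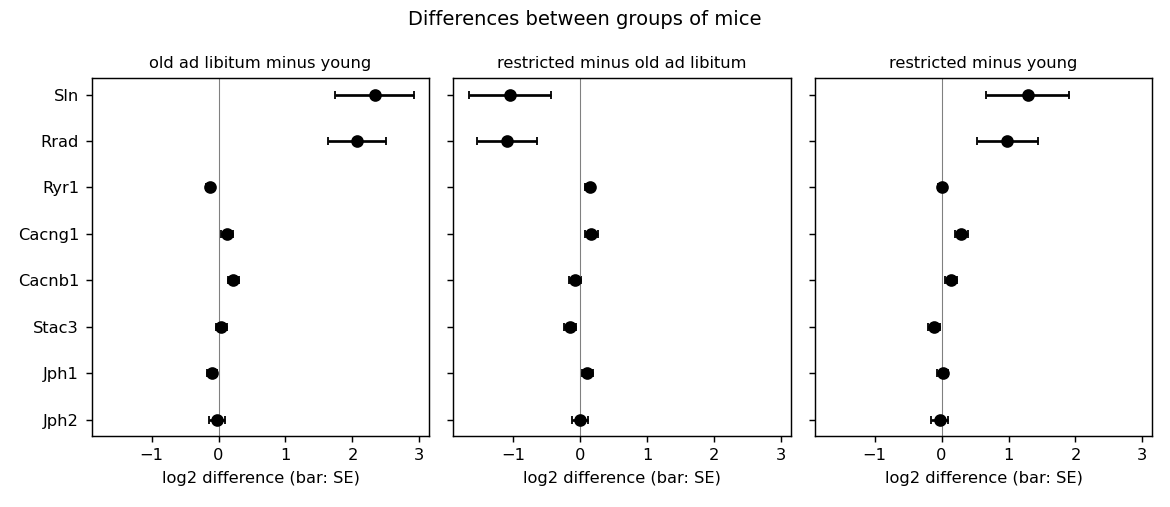
Log2 difference between groups for the 8 tested members, old ad libitum minus young, restricted minus old ad libitum and restricted minus young, with SE as bars. Sln and Rrad lie far from 0 with wide bars, and the other 6 genes lie between -0.15 and 0.30 in all 3 comparisons.

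Of the voltage sensor genes, Cacng1, the gamma subunit, was highest in restricted mice. Its level ran from 11.49 over 11.69 (median) to 11.83 in young mice and from 11.48 over 11.77 to 12.16 in old ad libitum mice. The restricted mice had levels of 11.89, 11.98, 11.85, 12.00 and 12.11, all above all young mice. The difference of 0.30 ± 0.10 (SE) from young mice did not pass (limma, adjusted p = 0.0859). On single chips it ran from 0.15 to 0.48, a sign nearly fixed by the lack of overlap between the mice. Sln and Cacng1 were thus the 2 of 8 members whose restricted and young groups did not overlap, beside 5.13% of all genes tested. Sln was chosen by a contrast with the same young mice, so this count is a description. When only these groups were fitted, the Cacng1 difference passed (limma, adjusted p = 0.0376), and it also passed with array weights or without old ad libitum mouse 4 or 6. Repeated arrays of a mouse had an SD of 0.15 for Cacng1, beside an SD between mice of 0.12 in young, 0.22 in old ad libitum and 0.10 in restricted mice.

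Cacnb1, the beta subunit that RGK GTPases bind, ran from 10.36 over 10.42 to 10.58 in young mice, from 10.35 over 10.67 to 10.99 in old ad libitum mice and from 10.44 over 10.66 to 10.70 in restricted mice. Of the 6 old ad libitum mice 5 lay above all young mice and mouse 3 lay below them all, and the means differed by 0.22 ± 0.09 (SE). Restricted and old ad libitum mice differed by -0.08 ± 0.09 (SE, adjusted p = 0.693 by limma). A second, dim Cacnb1 probe, detected on 21 of 24 arrays, gave 0.08 ± 0.13 for old minus young.

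Stac3, the adaptor that couples the sensor to the release channel, ran from 10.80 over 10.94 to 11.02 in young, from 10.83 over 10.94 to 11.18 in old ad libitum and from 10.53 over 10.85 to 11.04 in restricted mice. All groups overlapped. The differences were 0.04 ± 0.09 (SE) for old ad libitum minus young, -0.15 ± 0.09 for restricted minus old ad libitum (limma, adjusted p = 0.356) and -0.11 ± 0.09 for restricted minus young (limma, adjusted p = 0.495).

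**Figure D4:**
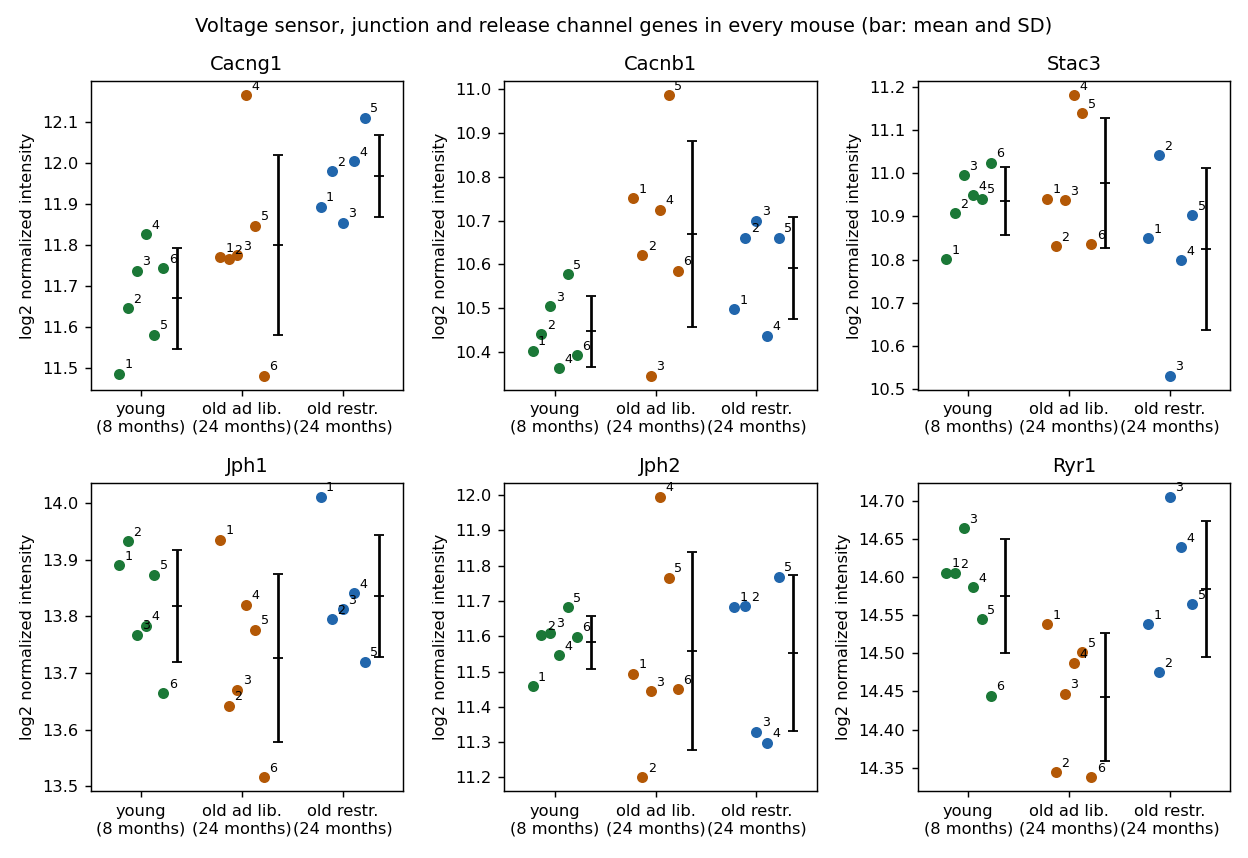
Log2 normalized intensity of Cacng1, Cacnb1, Stac3, Jph1, Jph2 and Ryr1 (brightest probe of each) in every mouse by group, with mouse numbers and the group mean with its SD as a bar. The axes differ between panels and span less than 1 log2 unit each; restricted mice lie above all young mice for Cacng1, and the groups overlap for the others.

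Ryr1, the release channel, lies on chromosome 7 from 29003340 to 29125179. Its brightest probe, on which the gene was compared, ran from 14.44 over 14.60 to 14.66 in young mice and from 14.34 over 14.47 to 14.54 in old ad libitum mice. The restricted mice had levels of 14.54, 14.48, 14.70, 14.64 and 14.56. The groups overlapped, and the differences were -0.13 ± 0.06 (SE) for old ad libitum minus young, a sign that turned with 75th percentile scaling (0.019), 0.14 ± 0.06 for restricted minus old ad libitum (limma, adjusted p = 0.231) and 0.01 ± 0.06 for restricted minus young (limma, adjusted p = 0.951).

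All 4 detected Ryr1 probes had a lower mean in the old ad libitum group than in the young group and a higher mean in restricted than in old ad libitum mice, by different amounts. With 75th percentile scaling the difference of old ad libitum minus young mice on the 3 bright probes was 0.019, -0.038 and -0.014, and on the dim probe -0.59, while restricted mice stayed higher than old ad libitum mice on all 4 (0.068 to 0.55). The probe ILMN_2730425 ran from 14.43 to 14.70 in young, from 14.31 to 14.38 in old ad libitum and from 14.42 to 14.66 in restricted mice, so that all old ad libitum mice lay below all other mice. The dim probe ILMN_1220181 ran from 8.14 over 8.58 to 8.88 in young mice and from 7.71 over 7.95 to 8.18 in old ad libitum mice. The restricted mice had levels of 8.68, 8.26, 8.50, 8.71 and 8.41 on it, all above all old ad libitum mice. Its means differed by -0.62 ± 0.12 (SE) for old ad libitum minus young and by 0.56 ± 0.13 for restricted minus old ad libitum.

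With every detected probe tested on its own, the dim probe was the 1 of 15 member probes that passed under restriction (limma, adjusted p = 0.0324 over 13265 probes), beside 2.69% of all probes tested. It was singled out after its values were seen. The call was lost under 11 alternatives. These were 1 array per mouse (adjusted p = 0.0592), no detection filter (adjusted p = 0.0587), only the 2 groups fitted (adjusted p = 0.067), the mouse number as a block (adjusted p = 0.104), leaving out old ad libitum mouse 2, 5 or 6 or restricted mouse 1, 3 or 4 (adjusted p up to 0.0843) and both old mice 5 and 6 left out (adjusted p = 0.0992). On single chips its difference ran from 0.43 to 0.80. Restricted and old ad libitum mice did not overlap on 2 of the 15 member probes, both of Ryr1, a state found in 2.19% of all probes. Old ad libitum and young mice did not overlap on 1 of the 4 Ryr1 probes, beside 3.09% of all probes. Probes of 1 gene in the same mice are not independent, so these counts are a description. The bright Ryr1 probes had signals of 15405 to 30107, on arrays whose brightest probe reached 41890 to 51490, and whether their smaller differences reflect the top of the signal range was not tested.

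**Figure D5:**
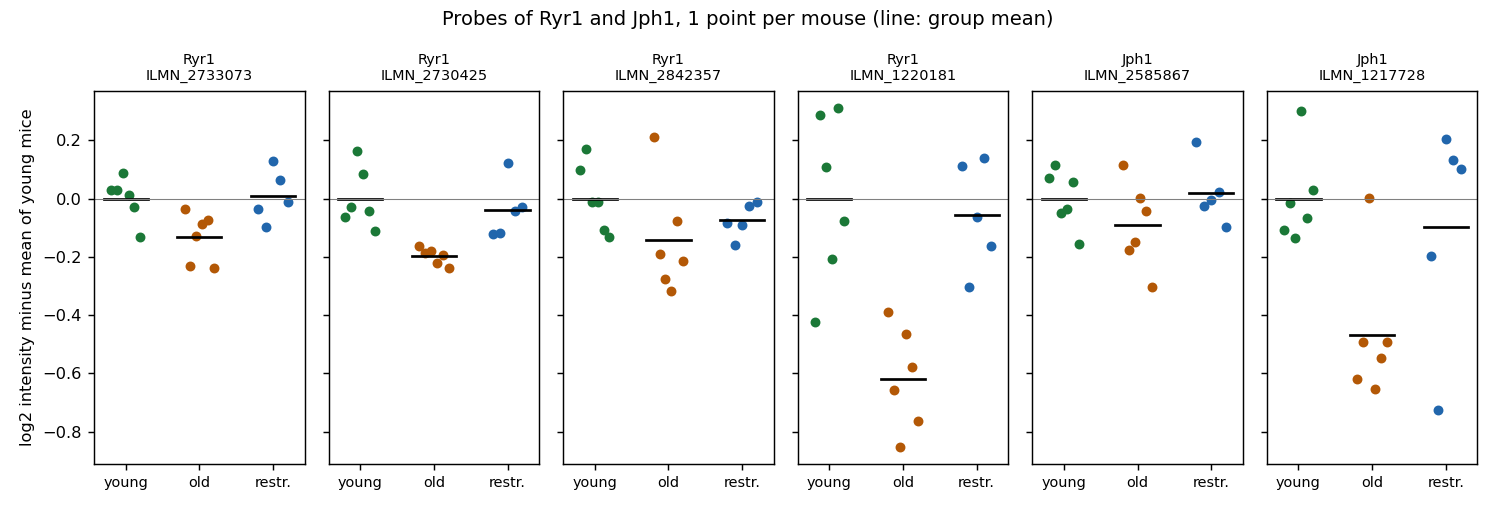
Log2 intensity of the 4 detected Ryr1 probes and both Jph1 probes minus the mean of the young mice, 1 point per mouse, with group means as lines and all panels on one scale. Every probe has its lowest group mean in old ad libitum mice under quantile normalization, though not with 75th percentile scaling for ILMN_2733073 and ILMN_2585867, and the dim probes ILMN_1220181 and ILMN_1217728 differ most.

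Of the junctophilins, Jph1 ran from 13.66 over 13.83 to 13.93 in young, from 13.52 over 13.72 to 13.94 in old ad libitum and from 13.72 over 13.81 to 14.01 in restricted mice on its bright probe. The old ad libitum mean differed from the young mean by -0.09 ± 0.08 (SE), or 0.027 with 75th percentile scaling, and the restricted mean from the old ad libitum mean by 0.11 ± 0.08 (limma, adjusted p = 0.471). The dimmer probe ILMN_1217728 showed a larger gap, -0.42 for old ad libitum minus young with that scaling. It ran from 9.92 to 10.35 in young mice and from 9.40 to 9.56 in 5 of the old ad libitum mice, with mouse 3 at 10.05. The restricted mice had levels of 9.86, 9.33, 10.26, 10.19 and 10.16, so that mouse 2 lay below all old ad libitum mice. The means of this probe differed by -0.47 ± 0.14 (SE) for old ad libitum minus young and by 0.37 ± 0.15 for restricted minus old ad libitum (limma, adjusted p = 0.182 over all probes). Without restricted mouse 2 the second difference was 0.53 and passed (limma, adjusted p = 0.029). On single chips it ran from -0.27 to 0.62.

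Jph2 had 3 detected probes. The brightest ran from 11.46 over 11.60 to 11.68 in young, from 11.20 over 11.47 to 12.00 in old ad libitum and from 11.30 over 11.68 to 11.77 in restricted mice. Its differences were -0.03 ± 0.12 (SE) for old ad libitum minus young (0.041 with 75th percentile scaling), -0.01 ± 0.12 for restricted minus old ad libitum (limma, adjusted p = 0.99) and -0.03 ± 0.12 for restricted minus young (limma, adjusted p = 0.911). The SD between mice was 0.08 in young, 0.28 in old ad libitum and 0.22 in restricted mice. The dimmer probes gave -0.09 ± 0.11 and -0.25 ± 0.12 for old ad libitum minus young.

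Jph2 and Stac3 varied together between mice of a group (r = 0.81, permutation p = 0.00044, adjusted over 28 pairs 0.0123; rho = 0.85, permutation adjusted p = 0.0112). Cacng1 and Stac3 did so as well (r = 0.68, permutation p = 0.00124, adjusted 0.0174; rho = 0.74, permutation adjusted p = 0.0134). Without the 2 mice farthest from the median of the first gene r was 0.77 and 0.59. Over 24 arrays with group and chip means subtracted it was 0.72 and 0.66. The same pairs also varied together between repeated arrays of single mice, where r over 12 arrays with mouse means subtracted was 0.94 and 0.84. Array-to-array variation thus moved with both pairs, and its part in the relation between mice was not tested. No other pair of the 28 passed the adjusted threshold, and 4 pairs had an unadjusted permutation p under 0.05.

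Few of the wider calcium handling genes passed the test. Of 97 listed genes 85 had a probe and 62 were tested. In old against young mice 1 of 62 rose and 1 fell, in restricted against old ad libitum mice 0 rose and 3 fell, and in restricted against young mice 1 rose and 1 fell. These shares were 3.23%, 4.84% and 3.23%, beside the 2.06%, 3.18% and 4.71% of all genes.

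Of the pumps that sarcolipin acts on, Atp2a1 is the fast fibre SERCA. It differed by -0.02 ± 0.06 (SE) between old ad libitum and young mice and by 0.02 ± 0.06 between restricted and old ad libitum mice. Its means of 15.17 in young, 15.14 in old ad libitum and 15.16 in restricted mice lay at the level of the skeletal muscle fibre genes. Whether the top of the signal range kept the Atp2a1 differences small was not tested. Atp2a2, the slow fibre SERCA, differed by 0.48 ± 0.40 (SE) and 0.39 ± 0.42, and by 0.87 ± 0.42 between restricted and young mice (limma, adjusted p = 0.242). Its SD was 0.56 in young, 0.82 in old ad libitum and 0.97 in restricted mice. Pln, which encodes the related pump inhibitor phospholamban, was detected on 11 of 24 arrays and differed by 0.32 ± 0.21 (SE) and by -0.33 ± 0.22. None of these differences passed the test.

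Among the genes of the calcium store, Calr, which encodes calreticulin, fell by 0.43 in old against young mice (SE 0.09; limma, adjusted p = 0.0247), the 1 of 10 tested that passed. The call was lost under 5 of 31 alternatives, among them without young mouse 1 (adjusted p = 0.059) or 2 (adjusted p = 0.064). Casq1, the fast fibre calsequestrin, differed by -0.49 ± 0.14 (SE), with all old ad libitum mice below all young mice, and did not pass (limma, adjusted p = 0.067). It was named after its values were seen.

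Of 8 tested genes of transverse tubule formation, Cavin4, a caveolar protein of muscle, rose by 0.31 ± 0.07 (SE) in old against young mice (limma, adjusted p = 0.0272), with no overlap. It fell by 0.28 under restriction (SE 0.07; limma, adjusted p = 0.0402). Dysf, which encodes the membrane repair protein dysferlin, fell by 0.30 in restricted against old ad libitum mice (SE 0.07; limma, adjusted p = 0.0309). The Cavin4 calls were lost under 8 and 15 of 31 alternatives and the Dysf call under 10.

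Of 14 tested genes of calcium entry, extrusion and buffering, Micu2, a regulator of the mitochondrial calcium uniporter, fell by 0.39 in restricted against old ad libitum mice (SE 0.09; limma, adjusted p = 0.0291), with no overlap. The call was lost under 6 of 31 alternatives, which were fitting only the 2 groups (adjusted p = 0.122), the mouse number as a block (adjusted p = 0.0763) and leaving out old ad libitum mouse 5 or restricted mouse 1, 3 or 4 (adjusted p = 0.055 to 0.0791). Slc8a3, a sodium-calcium exchanger, rose by 0.58 ± 0.12 (SE) in restricted against young mice (limma, adjusted p = 0.0136), and this call was lost when the probes of the gene were averaged, with a difference of 0.22 (adjusted p = 0.247). Of 12 tested genes of calcineurin and calmodulin kinase signalling, Nfatc3, a calcineurin-responsive transcription factor, fell by 0.40 in restricted against young mice (SE 0.11; limma, adjusted p = 0.0433). That call was lost under 14 of 31 alternatives, with a difference of -0.23 when its probes were averaged (adjusted p = 0.446).

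Of 6 tested channel subunit and Stac genes and 12 tested release channel and triad genes none passed in any comparison (limma). At an unadjusted p under 0.05 there were 0 of the 6 in each comparison, and of the 12 there were 2 in old against young, 0 in restricted against old ad libitum and 2 in restricted against young mice. Of all genes tested 19.4%, 19.8% and 21.5% had such a p in these comparisons. Cacng6 and Cacna2d1, the channel subunit genes with the smallest p under restriction, differed by -0.15 ± 0.12 (SE) and 0.25 ± 0.27 between restricted and old ad libitum mice. Selenon, which encodes a selenoprotein of the reticulum, and Homer1, a scaffold protein, differed by -0.14 ± 0.11 (SE) and 0.16 ± 0.13. The release channel genes Ryr2 and Ryr3 and the cardiac channel gene Cacna1c were detected on no array.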

How the data were processed

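The authors deposited a non-normalized table with, per the file headers, the signal intensity of each probe and its detection p-value on every array. GenomeStudio produced the signals, per the submitters' processing notes. The authors' series matrix, also deposited, holds linear intensity values with medians of 98.6 to 98.66 per array. They correlated with the signals at 0.9995 or more on the log2 scale and served as an alternative. Per the labels' protocols, QIAGEN RNeasy columns gave the RNA and an Ambion MessageAmp kit the biotin label.

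Normalization was by neqc (limma 3.58.1, R 4.3.3, offset 16), that is, background correction and quantile normalization, followed by log2. Probes with a detection p under 0.01 on at least 5 arrays and 1 gene symbol were kept, 13265 in all. A name that recurs in the labels was read as 1 mouse on several arrays, and these were averaged (24 arrays, 17 mice). The labels do not say in words that names are separate animals, so the p-values refer to the spread among these samples. The kept probe with the highest mean stood for a gene. Groups were compared with limma's lmFit and eBayes in 1 fit, two-sided, with Benjamini-Hochberg adjustment over 8943 genes and a threshold of 0.05. The fit was tested on simulated data.

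Correlations used deviations from group means, with 100000 permutations of mice within groups, two-sided. Members and lists were chosen with earlier results of these data known. Named were all member probes, the genes of each pathway list past the threshold in any comparison (otherwise up to 2 with the smallest p under restriction), Atp2a1, Atp2a2 and Pln, and the 5 genes most correlated with Sln and with Rrad, by deviations and by levels. There were 7 pathway lists. All 11 marker lists are used. Those of macrophage, smooth muscle, adipocyte, Schwann cell, endothelium, fibroblast and satellite cell were looked at only by their means. They were read for the place of the 2 old ad libitum mice with the most Sln. Alternatives were 13 other settings, leaving out each of 17 mice, and 2 added after seeing the data. Figures were drawn with matplotlib 3.10.9. The number of arrays limits the precision.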

Additional observations from a re-analysis of the deposited data

Results flagged for a closer look

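The dimmer Jph1 probe of old ad libitum mouse 3 stood at 10.05 on the log2 scale, while the next highest old ad libitum mouse was at 9.56 and the group median was 9.53. The gap was 0.753 of the range of the group. This was the 1 far value among 45 groups of mice examined for the members' probes. The critical value used is set so that chance marks about 1 in 20 groups, a rate that was not measured here. Mouse 3 lay within the range of the young mice on this probe.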

How the results depend on the processing

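The directions of Sln, Rrad, Cacng1, Cacnb1 and Stac3 between old ad libitum and young mice, and of all members but Jph2 between restricted and old ad libitum mice, were the same under every alternative run. Between old ad libitum and young mice 75th percentile scaling turned the sign of Ryr1 (0.019), Jph1 (0.027) and Jph2 (0.041). Leaving out 1 mouse at a time gave 1.74 to 2.71 for Sln and 1.82 to 2.22 for Rrad (old minus young). Rrad was 1.34 with no background correction and 1.34 in the authors' values. Sln in restricted minus young mice kept its 1.29 and passed when only these 2 groups were fitted, and also without old ad libitum mice 5 and 6 (1.29). That last setting, and every probe on its own, were chosen after seeing the data.

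Genes called with age numbered 184, and 280 with 75th percentile scaling, 95 with no detection filter, 284 on 24 arrays with the mouse as a random block, 281 with the chip as a block, 286 with probes averaged, 482 with array weights, 108 without old ad libitum mice 5 and 6 and 32 to 262 without 1 mouse. With every probe on its own 418 probes were called. Under restriction 284 were called, 24 when only the 2 groups were fitted, 90 without old mice 5 and 6 and 66 to 502 without 1 mouse. For restricted against young mice 421 were called, 273 with no detection filter, 1147 with array weights and 131 to 691 without 1 mouse.

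Pathway genes called with age numbered 2, and 1 with the first array of each mouse, 5 with probes averaged, 4 with array weights, 1 without old mice 5 and 6 and 0 to 3 without 1 mouse. Under restriction they numbered 3, and 0 when only the 2 groups were fitted, 1 without old mice 5 and 6 and 0 to 5 without 1 mouse. For restricted against young they numbered 2, and 1 with 75th percentile scaling, 1 with no detection filter, 4 with detection on all arrays of a group, 4 with the mouse as a random block, 0 with probes averaged, 6 with array weights, 5 when only the 2 groups were fitted, 4 without old mice 5 and 6 and 1 to 5 without 1 mouse.

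Differences near 0 changed sign. Jph2 in restricted minus old ad libitum mice (-0.01) was 0.0087 with the mouse as a random block, 0.042 with the chip as a block, 0.060 with probes averaged, 0.013 with array weights, 0.020 without old mice 5 and 6 and -0.077 to 0.082 without 1 mouse. In restricted minus young mice Ryr1 (0.01) was -0.019 with the first array of each mouse, -0.040 with probes averaged and -0.021 to 0.037 without 1 mouse. Jph1 (0.02) was -0.0018 with the chip as a block, -0.040 with probes averaged and -0.027 to 0.046 without 1 mouse. Jph2 (-0.03) was 0.028 with 75th percentile scaling, 0.031 with the chip as a block and -0.084 to 0.034 without 1 mouse.

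The correlation of Sln with Rrad was 0.55, and 0.54 with 75th percentile scaling, 0.38 on 24 arrays with group and chip means subtracted, 0.40 without the 2 farthest mice, 0.071 without old mice 5 and 6 and 0.36 to 0.65 without 1 mouse.

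Mouse numbers recur in the groups. Over 16 pairs of mice with one number the correlation of deviations ran from -0.251 to 0.188. Mice of different numbers in different groups were not compared in this way, so whether the numbers pair mice was not tested. With the mouse number as a replicate block 107, 88 and 244 genes were called in the 3 comparisons, and 0, 0 and 3 pathway genes. Ryr1 and Jph1 in restricted minus young mice were then -0.014 and -0.019.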
